A study of Homo sapiens with 5 samples.

Results

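Zinc finger genes of chromosome 19 were taken as the GENCODE release 44 protein-coding genes on this chromosome whose symbol is ZNF followed by digits, or by digits and 1 letter. The rule gave 246 of the 19689 protein-coding genes, chosen by name and position and not by any measured value. Of these, 232 lay in 10 clusters and 14 were scattered, where a cluster held at least 5 of the genes and ended when the next one began more than 500 kb further on. The measurements were CUT&Tag peak lists from SNU638, an established human gastric cancer cell line. CUT&Tag cuts and tags chromatin next to an antibody bound in permeabilised cells, so that fragments pile up where the target sits. The antibodies were anti-ACTL6A, anti-BRG1 or anti-NRF2, with 1 library for each target, and IgG, which recognises no chromatin protein, served as the control in 2 libraries. The labels name no treatment, no genetic change and no second condition, all groups share the same cells, and no antibody has a replicate. The question was where along this chromosome the 3 proteins sat at zinc finger genes, and how the clusters differed from each other and from other genes. With 1 library per antibody no test was possible, and every interval given is a 95% Wilson interval that covers the counting of genes or peaks only, not the spread between libraries. The lists hold no expression values, so the identity of the cell line could not be checked against marker genes, and no gene can be called active or silent from them.

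These genes encode proteins with rows of C2H2 fingers, each finger a small zinc-held fold that reads a few bases of DNA. Many carry a KRAB box near the start of the protein, which recruits the corepressor TRIM28 and, through it, the histone methyltransferase SETDB1, so that the bound site is packed into heterochromatin. The family spread by tandem duplication, which left neighbouring genes with closely related promoters and coding sequence, and many members bind transposable elements. BRG1 (gene SMARCA4) is an ATPase of the SWI/SNF chromatin remodelling complex, ACTL6A is an actin-like subunit of that complex and of other remodellers, and NRF2 (gene NFE2L2) is the transcription factor of the oxidative stress response. Reading the reference coding sequences in frame, between 1 and 39 fingers were found per protein (median 13). A KRAB A box pattern was found in 128 of the 246 proteins, and a looser form of the pattern, chosen after the data had been seen, in 178.

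The promoters of 5 genes of cluster 4, which spans chr19:19668796-24129968, are shown first because closely related starts there differed in their peaks. Each line holds the 250 bases before the start and the first 10 of the transcript, 5′ to 3′, from the RefSeq table of GRCh38.p14, with CpG dinucleotides in capitals. ZNF93, whose product binds LINE-1 elements, lies at chr19:19900696-19900955 (plus strand) and had ACTL6A and BRG1 peaks. ZNF91, whose product represses SVA elements, lies at chr19:23395462-23395721 (minus strand) and had peaks of all 3 antibodies. ZNF208 (chr19:22010934-22011193, minus strand), ZNF257 (chr19:22052234-22052493, plus strand) and ZNF723 (chr19:22832041-22832300, plus strand) had none.
ZNF93: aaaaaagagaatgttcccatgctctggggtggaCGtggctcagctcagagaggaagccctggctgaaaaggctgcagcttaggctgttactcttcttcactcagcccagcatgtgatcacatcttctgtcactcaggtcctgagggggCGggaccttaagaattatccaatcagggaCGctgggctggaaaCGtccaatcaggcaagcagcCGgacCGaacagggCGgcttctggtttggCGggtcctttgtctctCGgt
ZNF91: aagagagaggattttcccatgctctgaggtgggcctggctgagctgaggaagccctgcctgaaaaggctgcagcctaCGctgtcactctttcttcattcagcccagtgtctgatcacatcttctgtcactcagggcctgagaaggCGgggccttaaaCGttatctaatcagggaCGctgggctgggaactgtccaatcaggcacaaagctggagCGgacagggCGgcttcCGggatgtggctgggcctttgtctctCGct
ZNF208: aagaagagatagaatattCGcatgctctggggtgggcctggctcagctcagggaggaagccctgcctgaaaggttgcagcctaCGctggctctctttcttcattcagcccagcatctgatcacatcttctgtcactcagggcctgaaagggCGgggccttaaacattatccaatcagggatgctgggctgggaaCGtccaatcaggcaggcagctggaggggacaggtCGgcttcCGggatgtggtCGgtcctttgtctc
ZNF257: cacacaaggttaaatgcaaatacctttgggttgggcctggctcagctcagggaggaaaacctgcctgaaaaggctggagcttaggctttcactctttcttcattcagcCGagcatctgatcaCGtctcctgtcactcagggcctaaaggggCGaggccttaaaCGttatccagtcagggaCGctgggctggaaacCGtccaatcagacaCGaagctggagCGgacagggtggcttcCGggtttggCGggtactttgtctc
ZNF723: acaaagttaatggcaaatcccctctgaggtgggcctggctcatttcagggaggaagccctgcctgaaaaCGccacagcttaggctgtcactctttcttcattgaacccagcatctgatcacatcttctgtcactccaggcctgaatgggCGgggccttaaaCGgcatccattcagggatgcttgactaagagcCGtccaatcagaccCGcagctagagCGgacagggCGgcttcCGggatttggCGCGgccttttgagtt

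Over these 260 bases the promoters of ZNF91 and ZNF208 shared 230 identical bases in a global alignment, 88.5% of the length. The 10 pairs ranged from 78.5% for ZNF93 with ZNF723 to that value. The number of CpG dinucleotides ran from 7 in ZNF208 to 10 in ZNF257 and ZNF723, with 8 in ZNF91 and 9 in ZNF93, so the promoters with peaks did not hold more of them. All bases within 1 kb of each of these 5 starts lay in 96-base words that occur once in the reference genome, and the authors kept uniquely mapped reads of 150 bases. At the ZNF91 start the ACTL6A summit had 14 fragments against 0.434 that the peak caller expected, BRG1 19 against 0.896 and NRF2 11 against 1.72. At ZNF93 the ACTL6A summit held 15 fragments and the BRG1 summit 32. The alignment and the choice of these 5 genes were made after the peaks had been seen.

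A further 3 promoters are shown for the genes with the highest peaks. ZNF414 had the highest NRF2 peak of the zinc finger genes, ZNF566 was second among them in the NRF2 and ACTL6A lists, and ZNF8 had the highest BRG1 peak. Capitals mark TGACNNNGC, the core of the antioxidant response element that NRF2 and its small MAF partners bind, and the core of the element bound by the factor ZNF143. Their positions are chr19:36489552-36489811 (minus strand) for ZNF566, chr19:8514158-8514417 (minus strand) for ZNF414 and chr19:58278705-58278964 (plus strand) for ZNF8.
ZNF566: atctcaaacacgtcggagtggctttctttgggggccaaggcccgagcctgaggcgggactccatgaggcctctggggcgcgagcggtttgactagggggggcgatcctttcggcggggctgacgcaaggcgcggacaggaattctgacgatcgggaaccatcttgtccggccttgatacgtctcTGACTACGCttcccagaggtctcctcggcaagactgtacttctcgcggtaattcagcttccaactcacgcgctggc
ZNF414: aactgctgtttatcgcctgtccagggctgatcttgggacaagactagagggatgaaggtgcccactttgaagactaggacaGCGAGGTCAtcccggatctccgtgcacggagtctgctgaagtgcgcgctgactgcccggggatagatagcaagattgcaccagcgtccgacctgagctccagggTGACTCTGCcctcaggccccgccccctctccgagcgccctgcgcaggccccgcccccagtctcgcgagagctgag
ZNF8: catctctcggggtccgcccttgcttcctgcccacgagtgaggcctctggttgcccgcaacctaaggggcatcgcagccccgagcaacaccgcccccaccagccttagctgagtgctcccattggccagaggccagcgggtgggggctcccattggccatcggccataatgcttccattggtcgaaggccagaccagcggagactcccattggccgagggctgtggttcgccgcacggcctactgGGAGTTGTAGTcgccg

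Base 0 being the start, TGACNNNGC matched at -66 to -58 in ZNF566 and at -169 to -161 and -65 to -57 in ZNF414. The ZNF143 core matched the opposite strand of ZNF8 from -6 to 4. Counted from the same printed starts, the NRF2 summit lay 56 bp downstream at ZNF414 and 15 bp downstream at ZNF566. Both genes have another GENCODE start nearer to the summit, 37 bp before it at ZNF414 and 9 bp after it at ZNF566. A match of letters is a description and not a site.

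Peaks numbered 48793 with anti-BRG1, 23917 with anti-ACTL6A and 9045 with anti-NRF2, of which 3257, 1363 and 652 lay on chromosome 19. The IgG 1 list held 11 peaks and the IgG 2 list 1746, with none and 92 on this chromosome, and 6 of the latter fell in the span of cluster 6, all away from a TSS. Lists of such different length cannot be compared by their shares, so each antibody was read against its own share over all genes. The total of reads per library is not part of the lists. The depth is given as the whole number of fragments at a summit, which the deposited fold enrichment and p-value together fix, and the local number the caller expected there.

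Within 1 kb of a TSS (the 5′ end of any protein-coding transcript), the zinc finger genes of chromosome 19 had ACTL6A, BRG1 and NRF2 peaks more often than protein-coding genes as a whole. An ACTL6A peak lay at 139 of 246 genes (56.5%, interval 50.3 to 62.6), against 38.5% of all protein-coding genes. A BRG1 peak lay at 178 (72.4%, 66.5 to 77.6), against 63.5%. An NRF2 peak lay at 100 (40.7%, 34.7 to 46.9), against 28.1%. None of the 246 had a peak of either IgG list, and the Wilson interval of each reached up to 1.54% (counting error only). Over all genes the IgG 1 share was 0% and the IgG 2 share 0.152%. Among the other 1186 protein-coding genes of chromosome 19, which include zinc finger genes of other names, the shares were 41.6%, 66.5% and 30.5% in the same order. The intervals overlapped those of the zinc finger genes only for BRG1. The 262 genes of the same naming rule on other chromosomes had shares of 52.7%, 78.2% and 39.7%, with intervals that overlapped those of the chromosome 19 genes for all 3 antibodies. In both groups of zinc finger genes the shares of all 3 antibodies stood above those of all genes. On chromosome 19 the BRG1 excess was not found in every class. Among genes with 4 or more annotated starts BRG1 was at 73.3% of 131 zinc finger genes (65.1 to 80.1), against 78.6% of all genes. With 2 to 3 starts it was at 72.8% against 60.7%, and with 1 start at 65.2% against 41.9%. Where another gene's start lay in the TSS window BRG1 was at 83.3% of 42 (69.4 to 91.7), against 88.1%. Without one it was at 70.1%, against 57.8%.

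Over gene bodies, that is over the annotated gene but more than 1 kb from every protein-coding TSS, the order turned. An ACTL6A peak lay over 24 bodies (9.76%, 6.64 to 14.1), against 25.2% of all genes, a BRG1 peak over 68 (27.6%, 22.4 to 33.5), against 40.9%, and an NRF2 peak over 4 (1.63%, 0.634 to 4.11), against 5.63%. The IgG 2 list covered 1.03% of all gene bodies and the IgG 1 list 0.0203%, and neither had a peak over any zinc finger gene. Per megabase of body, BRG1 peaks numbered 13.5 over the zinc finger genes and 14.2 over all genes, so the gap in BRG1 share was not there per length. ACTL6A peaks numbered 3.93 per megabase against 6.21 and NRF2 peaks 0.582 against 0.985. Over the other genes of chromosome 19 the densities in the ACTL6A, BRG1 and NRF2 lists were 18.8, 55.9 and 4.73. Over the 262 genes of the same naming rule on other chromosomes they were 5.06, 12.3 and 2.10. Of these bodies 19.5%, 35.1% and 8.40% had a peak, in the same order. The ACTL6A and BRG1 shares were below those of all genes there too, and the NRF2 share was above. The BRG1 interval of 29.6 to 41.1 and the NRF2 interval of 5.61 to 12.4 held the shares of all genes. When peaks near a TSS were counted as well, the shares of the chromosome 19 zinc finger genes were above those of all genes, at 52.4% against 48.8% for ACTL6A, 77.2% against 73.5% for BRG1 and 39.0% against 29.9% for NRF2.

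At the TSS the 3 lists met at the same genes. All 3 antibodies had a peak at 82 zinc finger genes (33.3%, 27.7 to 39.4), against 22.1% of all genes. ACTL6A and BRG1 without NRF2 were found at 52 (21.1%, 16.5 to 26.7, against 14.7%). BRG1 and NRF2 without ACTL6A were found at 14, and this share of 5.69% was close to the 5.60% of all genes. BRG1 alone lay at 30 (12.2%, 8.68 to 16.9), less often than at all genes (21.1%), and no list had a peak at 60 (24.4%, against 34.4%). The 262 genes of the same naming rule on other chromosomes were alike in part. All 3 antibodies had a peak at 32.1% of them, ACTL6A and BRG1 without NRF2 at 19.1%, BRG1 alone at 19.8% (15.5 to 25.1) and no list at 19.8%. Of the 178 chromosome 19 zinc finger genes with a BRG1 peak, 75.3% (68.5 to 81.0) also had one of ACTL6A, against 58.0% of all genes with a BRG1 peak. An NRF2 peak lay at 53.9% of them (46.6 to 61.1), against 43.6%. On other chromosomes the genes of the same naming rule with BRG1 stood at 65.4% (58.6 to 71.5) and 50.2% (43.5 to 57.0), with overlapping intervals. Of the 139 chromosome 19 zinc finger genes with an ACTL6A peak 96.4% had one of BRG1, and over all genes that share was 95.7%. Of the 142 distinct ACTL6A peaks at these starts 93.7% overlapped a BRG1 peak by 1 bp or more (88.4 to 96.6), against 87.1% over all genes, with a median of 66 bp between the summits. Of the 100 NRF2 peaks 93% did (86.3 to 96.6), an interval that held the 94.9% over all genes, with a median of 148 bp.

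Some peaks served more than 1 gene. At 42 genes the TSS window also held the start of another protein-coding gene, and at 18 that other gene was itself a zinc finger gene of the set. In the BRG1 list 10 of the 208 distinct TSS peaks lay within 1 kb of 2 members, in the ACTL6A list 7 of 142 and in the NRF2 list 4 of 100. Neighbouring genes are thus not independent.

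The summits lay close to the start. For ACTL6A 84.5% of the 142 summits were within 250 bp of the nearest TSS, against 70.8% over all genes, for BRG1 79.3% of 208 against 69.0%, and in the NRF2 list 79% of 100 against 72.3%. The median ACTL6A summit lay 60 bp upstream, against 52 bp upstream over all genes, and 71.8% were on the upstream side, against 64.1%. BRG1 summits were upstream in 57.2% and NRF2 summits in 54%, near the 54.2% and 51.9% over all genes. At the genes of the same naming rule on other chromosomes 69.6% of the ACTL6A summits were upstream too. There 75% of ACTL6A, 72.0% of BRG1 and 77.1% of NRF2 summits lay within 250 bp.

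The peaks were common at these genes but not especially high. Peaks were ranked within each list by its −log10 q value, the caller's score for a peak, and the rank given as a percentile with the highest peak near 0. Each gene's highest TSS peak had a median percentile of 18.2 in the ACTL6A list, against 20.7 for all genes with such a peak, 17.1 against 18.8 in the BRG1 list and 43.5 against 41.8 in the NRF2 list. The other genes of chromosome 19 had medians of 15, 14.2 and 33.8. In the top 10% of the ACTL6A list were 25.2% of the zinc finger genes with a peak, against 26.7% of all genes with one and 36.7% of the other chromosome 19 genes. For BRG1 these shares were 31.5%, 29.3% and 43.0%, and for NRF2 6%, 7.87% and 13.8%. The zinc finger genes thus stood near all genes here and below the other genes of their chromosome. The median summit held 9 fragments for ACTL6A, 21 for BRG1 and 18 for NRF2.

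Among single genes, ZNF558 (chr19:8806170-8832314), a KRAB gene of cluster 2, had the highest ACTL6A peak. Its summit held 38 fragments against 1.36 expected, a fold enrichment of 16.5 and rank 172 in the list. Its BRG1 peak held 70 fragments and ranked 504, and its NRF2 peak held 35 and ranked 748. All 3 summits lay between 433 and 536 bp upstream of the nearest start, further out than at most of the genes. ZNF566 (chr19:36445119-36489902), a KRAB gene of cluster 6, followed in the ACTL6A list with 40 fragments and rank 190. Its NRF2 peak, at rank 463, held 50 fragments, and its BRG1 peak, at rank 3640, held 38. ZNF444 (chr19:56132599-56160893), a gene of cluster 9 with 4 fingers and no KRAB pattern, had the next ACTL6A peak with 30 fragments at rank 438.

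In the BRG1 list ZNF8 (chr19:58278955-58302791), a KRAB gene of cluster 10, led with 85 fragments against 4.13 expected and rank 338. ZNF627 (chr19:11559374-11619161) followed with 68 fragments and a fold enrichment of 21.1, at rank 406. In the NRF2 list ZNF414 (chr19:8509678-8514167), with 3 fingers and no KRAB pattern, held 62 fragments against 6.43 expected, at rank 330. ZNF808 (chr19:52527652-52564464), a gene of 23 fingers known for a part in pancreas development, came after ZNF566, with 36 fragments at rank 578. Ranked by the worst of their 3 percentiles, the genes best placed in all 3 lists were ZNF566, ZNF558, ZNF414, ZNF564 and ZNF563. The last is a cluster 3 gene with percentiles of 2.73, 1.29 and 14.4 for ACTL6A, BRG1 and NRF2. ZNF564, also of cluster 3, had 9.95, 5.98 and 12.6. The first-placed genes thus included both a KRAB gene with 7 fingers and a gene of 3 fingers without the pattern.

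Along the chromosome clusters 3 and 7 stood furthest apart among the clusters of more than 5 genes for ACTL6A and NRF2. Cluster 3 (chr19:11483427-12640098, from ZNF653 to ZNF791) had TSS peaks of ACTL6A at 20 of 25 genes (80%, 60.9 to 91.1), of BRG1 at 23 (92%, 75.0 to 97.8) and of NRF2 at 17 (68%, 48.4 to 82.8), and 14 of its genes had all 3. Cluster 7 (chr19:43525497-44500524, ZNF575 to ZNF180) had ACTL6A at 10 of 23 (43.5%, 25.6 to 63.2), BRG1 at 16 (69.6%, 49.1 to 84.4) and NRF2 at 4 (17.4%, 6.98 to 37.1), and 3 had all 3. The NRF2 intervals of these clusters did not overlap, and those of ACTL6A and BRG1 did. With only peaks of −log10 q of at least 5 the NRF2 intervals met as well, at 30.0 to 66.5 for cluster 3 and 4.54 to 32.1 for cluster 7. Cluster 4, the longest with 37 genes from ZNF101 to ZNF254 over 4.46 Mb, had the lowest BRG1 share, 21 genes (56.8%, 40.9 to 71.3), below the 63.5% of all genes. Neither the rank nor the side held at −log10 q of at least 5, where it kept 56.8%, above the 55.4% of all genes, and clusters 7 and 8 stood at 47.8% and 53.8%. In cluster 4 ACTL6A was found at as many genes, 21, and NRF2 at 12 (32.4%). The BRG1 interval of cluster 4 lay below that of cluster 3. At −log10 q of at least 5 these intervals overlapped, at 40.9 to 71.3 for cluster 4 and 65.3 to 93.6 for cluster 3. BRG1 peaks away from every protein-coding TSS numbered 10.1 per megabase in the span of cluster 4, against 16.4 in cluster 7 to 26.4 in cluster 10 over the other clusters of more than 5 genes.

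Among the remaining clusters, cluster 8 (chr19:51571283-53580269, ZNF175 to ZNF331) had ACTL6A at 19 of 39 genes, BRG1 at 26 and NRF2 at 16. Cluster 10 (chr19:57191500-58481230, ZNF264 to ZNF446), with 43 genes and close to the end of the chromosome, had 22, 32 and 13. Cluster 6 (chr19:36182276-37817300, ZNF565 to ZNF573) had 14, 18 and 13 of 26, cluster 9 (chr19:55476617-56671783, ZNF628 to ZNF835) 9, 11 and 7 of 16, and cluster 2 (chr19:8509678-9793180, ZNF414 to ZNF846) 8, 10 and 5 of 13. In the small clusters 1 (chr19:2819868-2944971) and 5 (chr19:34677639-34964229), of 5 genes each, BRG1 was at every start. ACTL6A was at 4 and 3 of them and NRF2 at 3 and 2. The 14 scattered genes had 9, 11 and 8. Between clusters 2, 6, 8, 9 and 10 the intervals of each antibody overlapped, so these were not told apart.

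The highest BRG1 TSS peak of each cluster belonged to ZNF556, ZNF558, ZNF627, ZNF93, ZNF302, ZNF383, ZNF575, ZNF761, ZNF444 and ZNF8, in the order of the clusters. Their summits held from 26 fragments at ZNF302 (rank 5294) to 85 at ZNF8. Each of them also had an ACTL6A peak, and all but ZNF93 an NRF2 peak. ZNF556 in cluster 1 had 47 BRG1 fragments, 25 of ACTL6A and 14 of NRF2, at an observed over expected CpG ratio of 0.412. ZNF575 had 74 BRG1 fragments, with its summit 676 bp downstream of the nearest start.

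Cluster 4 was not uniform. From ZNF43 to ZNF730 (chr19:21804946-23147221, 1.34 Mb), 11 zinc finger genes in a row, ZNF43, ZNF208, ZNF257, ZNF676, ZNF729, ZNF98, ZNF492, ZNF99, ZNF723, ZNF728 and ZNF730, had no TSS peak of any list. It was the longest such stretch, the next being 4 genes in cluster 8, and it was picked after the peaks had been seen. Over its whole length there were 8 BRG1 peaks, 2 ACTL6A peaks and no NRF2 or IgG peak, and 1 gene, ZNF43, had a BRG1 peak over its body. The genes on either side had peaks. ZNF100, just before it, had ACTL6A and BRG1, and ZNF724 and ZNF91, just after it, had all 3, with 13, 21 and 13 fragments at ZNF724 for ACTL6A, BRG1 and NRF2. The lowest share of TSS window bases in 96-base words found once in the genome was 100% over the 11 genes. Their median observed over expected CpG was 0.579 within 1 kb of the start, against 0.508 in the other 26 genes of the cluster. Within 250 bp it was 0.497 against 0.436. Their fingers numbered 14 at the median, against 12.5. The 11 genes had fewer annotated starts, with a median of 2 per gene against 4, and so fewer windows in which a peak could be found. Of their 32-base words 75.4% at the median were found once, against 81.6%. The part of either in the missing peaks was not tested.

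Runs of the opposite kind were found too. In cluster 8 the 7 genes from ZNF611 to ZNF816 (chr19:52702813-52962911) all had peaks of the 3 antibodies, as did 5 in cluster 3 from ZNF44 to ZNF443 (chr19:12224686-12441021) and 4 in cluster 4 from ZNF430 to ZNF708 (chr19:21020634-21329425). BRG1 was at every one of the last 10 genes of cluster 3, from ZNF136 to ZNF791, and of 10 genes of cluster 8 from ZNF83 to ZNF415. When clusters were cut at gaps of 250 kb instead of 500 kb, cluster 4 fell into 8 genes from ZNF101 to ZNF486, of which 87.5% had ACTL6A and BRG1 peaks, and 29 genes, of which 48.3% had each. NRF2 was at 25% of the former and 34.5% of the latter. Cluster 9 fell likewise into 7 genes from ZNF628 to ZNF581, all with BRG1, and 9 from ZNF787 to ZNF835, of which 44.4% had it.

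Inside the cluster spans, protein-coding genes outside the naming rule had peaks less often than the zinc finger genes of the rule. That held when all clusters were pooled, but not in every cluster. Some of the 101 genes outside the rule are zinc finger genes of other names, such as ZFP14, ZFP82 and ZFP30 in cluster 6. Of the 101 genes 31.7% had an ACTL6A TSS peak (23.4 to 41.3), 47.5% a BRG1 peak (38.1 to 57.2) and 25.7% an NRF2 peak (18.2 to 35.0). The intervals lay below those of the zinc finger genes for ACTL6A and BRG1 and overlapped slightly for NRF2. The other 1085 chromosome 19 genes, outside the spans, stood at 42.5%, 68.3% and 31.0%. For ACTL6A the gap was widest in clusters 9, 2 and 8. Such genes had ACTL6A at 3 of 23, 3 of 15 and 2 of 15, against 56.2%, 61.5% and 48.7% of the zinc finger genes there. In cluster 7 it ran the other way for all 3 antibodies. There 46.2%, 76.9% and 38.5% of 13 other genes had ACTL6A, BRG1 and NRF2 peaks, against 43.5%, 69.6% and 17.4% of the zinc finger genes. The genes outside the rule also stood higher in cluster 3 for BRG1 (8 of 8) and in cluster 10 for NRF2 (35% against 30.2%). In cluster 6 they did for ACTL6A (3 of 5, with ZFP14 and ZFP30 among the 3).

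The GC content within 1 kb of the TSS had medians of 53.8% at zinc finger genes with an ACTL6A peak and 51.3% without. For BRG1 the medians were 53.1% and 50.3%, and for NRF2 53.8% and 51.3%. Over all genes they were 56.5% and 55.6% for ACTL6A, 57.8% and 51.4% for BRG1, and 57.1% and 55.4% for NRF2. The CpG content of this window did not sort the zinc finger genes of chromosome 19 as it sorted genes in general. CpG content was given as observed over expected CpG within 1 kb of the TSS, which is high at CpG island promoters. Of the 117 zinc finger genes at or above 0.6, 57.3% had ACTL6A, 75.2% BRG1 and 41.0% NRF2. Of the 129 below it, 55.8% had ACTL6A, 69.8% BRG1 and 40.3% NRF2. Over all genes the shares were 50.3%, 82.3% and 39.9% at or above 0.6 and 23.2%, 39.2% and 12.8% below it. The excess over all genes was largest in the low class for all 3 antibodies. The classes did not hold like CpG values, however. The quartiles of the ratio were 0.548 and 0.661 over the zinc finger genes, and 0.383 and 0.755 over all genes. Zinc finger genes thus lay closer to the cut on both sides of it. The part of this in the shares by class was not tested. In the high class the ACTL6A share was still above that of all genes, with an interval of 48.2 to 65.9 that held their 50.3%, the NRF2 share was close to it and the BRG1 share below it. The BRG1 interval of 66.7 to 82.2 just missed the 82.3% of all genes. The genes of the same naming rule on other chromosomes were sorted by CpG, with 58.9%, 88.3% and 47.8% of 180 in the high class and 39.0%, 56.1% and 22% of 82 in the low class. Their shares in the low class were also above those of all genes.

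The window mattered for this split. The median CpG ratio of the zinc finger genes was 0.593 over 1 kb on each side and 0.765 over 250 bp on each side, so many of these starts hold a narrow CpG-rich stretch. With the narrow window, an alternative chosen after the data had been seen, 196 of the 246 stood at or above 0.6. Of these 56.6% had ACTL6A, 75.5% BRG1 and 42.3% NRF2, against 49.4%, 80.5% and 37.9% of all genes in that class. The 50 below it had 56%, 60% and 34%, against 14.6%, 26.2% and 6.65%. The ACTL6A interval in the CpG-rich class, 49.6 to 63.4, lay just above the 49.4% of all genes. The BRG1 share at CpG-rich starts lay below that of all genes with either window, though the interval for the narrow one, 69.0 to 81.0, held the 80.5% of all genes.

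Of the 246 genes, 216 matched an entry of the RefSeq promoter table, and 1 promoter of 300 bases was searched per gene, the one nearest its reference TSS, on both strands. CCGGAAGT, the core bound by ETS factors such as GABPA, was in 44 (20.4%, 15.5 to 26.2), against 4.14% of all 35116 promoters and 6.42% of those of protein-coding genes. It was in 27.0% (20.0 to 35.3) of the promoters of genes without an NRF2 TSS peak and in 11.1% (6.15 to 19.3) of those with one. For no other motif searched and no other list were the intervals apart. A TSS peak may lie at another start of the gene than the promoter searched. With and without a BRG1 TSS peak CCGGAAGT was in 18.9% and 24.6%, and with and without an ACTL6A one in 17.1% and 24.7%, with overlapping intervals. Of the promoters of 51 genes without a TSS peak of any antibody 25.5% held it.

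The following 4 promoters hold CCGGAAGT or its reverse complement ACTTCCGG in capitals and show it at genes with and without TSS peaks. ZNF865 (chr19:55605397-55605656, plus strand) and ZNF226 (chr19:44164850-44165109, plus strand) had peaks of all 3 antibodies, and ZNF461 (chr19:36666828-36667087, minus strand) and ZNF829 (chr19:36916282-36916541, minus strand) had none.
ZNF865: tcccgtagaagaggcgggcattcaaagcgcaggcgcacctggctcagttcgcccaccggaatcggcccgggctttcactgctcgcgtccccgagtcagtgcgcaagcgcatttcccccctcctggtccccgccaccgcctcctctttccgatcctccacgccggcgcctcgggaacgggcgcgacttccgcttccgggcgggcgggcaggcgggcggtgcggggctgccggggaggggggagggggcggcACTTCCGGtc
ZNF226: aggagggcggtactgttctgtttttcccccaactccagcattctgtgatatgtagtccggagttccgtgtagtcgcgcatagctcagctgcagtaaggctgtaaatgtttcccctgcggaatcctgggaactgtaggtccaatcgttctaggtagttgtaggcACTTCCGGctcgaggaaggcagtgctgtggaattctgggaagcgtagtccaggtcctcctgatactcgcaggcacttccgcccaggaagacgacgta
ZNF461: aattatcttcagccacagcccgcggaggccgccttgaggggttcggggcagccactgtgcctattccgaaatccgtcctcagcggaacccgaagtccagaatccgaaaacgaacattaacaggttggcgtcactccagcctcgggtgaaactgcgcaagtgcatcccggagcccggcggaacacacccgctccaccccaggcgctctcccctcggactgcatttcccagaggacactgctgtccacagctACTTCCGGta
ZNF829: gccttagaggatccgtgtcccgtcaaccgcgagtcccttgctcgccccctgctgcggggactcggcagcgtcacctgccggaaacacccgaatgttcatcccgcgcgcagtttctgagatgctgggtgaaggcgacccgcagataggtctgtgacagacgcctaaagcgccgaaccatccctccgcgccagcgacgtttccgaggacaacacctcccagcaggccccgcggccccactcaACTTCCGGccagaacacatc

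The letters began at the start base itself in ZNF865 and ZNF461, at -87 in ZNF226 and at -10 in ZNF829. At ZNF865 the BRG1 summit held 65 fragments and at ZNF226 29. The core of the NRF1 element was in 11.1% of the zinc finger promoters (7.58 to 16.0), an interval that held the 8.86% of protein-coding promoters, and in 5.78% of all promoters. The ZNF143 core was in 4.17% (2.21 to 7.73), against 1.66% of protein-coding and 0.988% of all promoters. TGACNNNGC was in 13.9% (9.91 to 19.1), in 14.3% of protein-coding and 13.3% of all promoters. It was in 17.8% (11.2 to 26.9) of the promoters of zinc finger genes with an NRF2 TSS peak and 11.1% (6.73 to 17.8) of those without. The last intervals overlapped. The ZBTB33 palindrome was in 0.926% (0.254 to 3.31), against 0.672% of protein-coding and 0.424% of all promoters.

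By protein features the shares were not told apart. Of the 128 genes with the KRAB A box pattern 53.1% had ACTL6A (44.5 to 61.6), 68.8% BRG1 and 42.2% NRF2, and of the 118 without it 60.2% (51.2 to 68.5), 76.3% and 39.0%. With the looser pattern the shares were 54.5%, 69.7% and 40.4% of 178 genes, and 61.8%, 79.4% and 41.2% of 68. By fingers, the 98 genes with 14 or more had BRG1 at 70.4%, the 117 with 8 to 13 at 70.9% and the 31 with fewer than 8 at 83.9% (67.4 to 92.9). All these intervals overlapped for each antibody.

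A few starts had ACTL6A or NRF2 without BRG1. There were 5 with ACTL6A (2.03%, 0.871 to 4.67, near the 1.66% of all genes) and 4 with NRF2 (1.63%, 0.634 to 4.11, against 0.432%). The ACTL6A genes were ZNF426, ZNF90, ZNF568, ZNF525 and ZNF471, and the NRF2 genes ZNF85, ZNF114, ZNF615 and ZNF525. The highest ACTL6A peak among them was that of ZNF471, with 6 fragments against 0.225 expected and rank 7058, and those of ZNF90 and ZNF525 held 5 each. The highest NRF2 peak, at ZNF615, held 14 fragments and ranked 3436, followed by ZNF525 with 14 and ZNF85 with 13. The 3 ACTL6A counts lay below that list's lower quartile of 7 at zinc finger genes, and the 3 NRF2 counts within the quartiles of 13 to 22. A BRG1 signal under the caller's threshold would not be listed.

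Over gene bodies 27 distinct ACTL6A peaks, 93 BRG1 peaks and 4 NRF2 peaks were found, most of them low, with medians of 4, 6 and 9.50 fragments. Of the 93 BRG1 summits 40.9% lay in introns of the reference transcript, 10.8% in coding sequence and 35.5% outside that transcript but within the annotated gene. In the last exon, which encodes the fingers in genes of this family, lay 18 of the 93 (19.4%, 12.6 to 28.5). That exon made up 11.8% of the summed gene length. This length includes the stretches within 1 kb of a TSS, where body peaks were not counted. The shares thus do not have the same base and cannot be set against each other. Another 5′ end of some transcript, coding or not, lay within 1 kb of 18 of the BRG1 peaks and 4 of the ACTL6A peaks. Of the 27 ACTL6A peaks 11 shared at least 1 bp with a BRG1 body peak, and no body peak of the 3 lists shared a base with an IgG peak.

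The highest BRG1 body peak was in an intron of ZNF507 (chr19:32373823-32374154, 28374 bp from the reference start), with 57 fragments against 1.76 expected and rank 615. An ACTL6A peak of 6 fragments lay at the same place. At the start of ZNF507 itself the BRG1 peak held only 6 fragments. ZNF584 came second, with 72 fragments at chr19:58401196-58401645, over the first base of the annotated gene and at the 5′ end of a transcript of it without a defined coding sequence. ZNF709 held the one NRF2 body peak that shared bases with an ACTL6A peak. At chr19:12495278-12495688, 10585 bp from the reference start and outside the reference transcript, BRG1 had 46 fragments and rank 1008, ACTL6A 12 fragments and rank 1775, and NRF2 12 fragments and rank 6256. The BRG1 peak at the ZNF709 start held 8 fragments, so the inner peak was the higher one.

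In ACTL6A the next highest body peaks were in an intron of ZNF266 (chr19:9431559-9431784, 9 fragments) and in the coding part of the last exon of ZNF565 (chr19:36182563-36183050, 10 fragments), where BRG1 had 39. The other NRF2 body peaks named by rank, at ZNF345 (chr19:36877471-36877802, 9 fragments) and ZNF8 (chr19:58294658-58294993, 10 fragments), also lay in the coding part of the last exon, each with a BRG1 peak overlapping it of 6 and 5 fragments.

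The partners through which KRAB zinc finger proteins silence DNA were looked at as a list of 24 genes. BRG1 had a TSS peak at 23 of them (95.8%, 79.8 to 99.3, against 63.5% of all genes), ACTL6A at 17 (70.8%, 50.8 to 85.1, against 38.5%) and NRF2 at 13 (54.2%, 35.1 to 72.1, against 28.1%), and SMARCAD1 was the one without any. Over all genes with a CpG ratio of at least 0.6 the shares were 82.3% for BRG1, 50.3% for ACTL6A and 39.9% for NRF2. The part of CpG content in the shares of the 24 genes was not tested. TRIM28, the corepressor itself, lies next to the last cluster (chr19:58544064-58550722) and had 100 BRG1 fragments at its summit (rank 215), 20 of ACTL6A and 28 of NRF2. SETDB1, the H3K9 methyltransferase (chr1:150926263-150964744), had 23, 11 and 12. CBX3, which encodes an HP1 protein, had 81 BRG1 fragments and rank 316. Of 19 zinc finger genes of chromosome 19 with other names, such as ZFP and ZSCAN genes, BRG1 was at 8 (42.1%, 23.1 to 63.7), ACTL6A at 5 (26.3%, 11.8 to 48.8) and NRF2 at 4 (21.1%, 8.51 to 43.3), and each interval held the share of all genes. ZFP30, with 24 BRG1 fragments, was among those with all 3, and ZIM3 and the imprinted neighbours PEG3 and ZIM2 had none.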

How the data were processed

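CUT&Tag was done by the authors on SNU638 cells, and 5 peak lists were deposited, 1 per library. Per the labels and the study's methods, reads of 150 bases were cleaned (fastp 0.23.0), aligned to hg38 with BWA, kept where uniquely mapped, and peaks called per library with MACS2 at q under 0.05. Whether a control entered the calling is not given in the sources used here. Each deposited peak carries a whole-number score (10 times the −log10 q, cut to an integer), a fold enrichment, a −log10 p and a −log10 q, as the authors' caller wrote them. Fragments at each summit were solved from fold enrichment (pseudocount 1) and p, within 0.001, and came out whole for 99.1% to 100% of peaks per list. On simulated peaks this recovered every count.

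TSSs and genes came from GENCODE release 44 (GRCh38), a peak at a TSS lying within 1 kb of a protein-coding transcript start. Shares carry 95% Wilson intervals. No test was made. Uniqueness was computed for words of 96 and 32 bases. Genes named were those with the 3 highest TSS and body peaks per list, the highest BRG1 TSS peak per cluster, the 5 best in all lists, 3 each without BRG1, and TRIM28 and SETDB1. Others were named after their values were seen. The genes and lists were chosen with earlier results of these data known. The software was matplotlib 3.10.9, Biopython 1.88, numba 0.67.0, pysam 0.24.0, pandas 2.3.3, SciPy 1.17.1 and NumPy 2.4.6 under Python 3.11.15. RefSeq proteins were not used here, so fingers and KRAB patterns were read from the GENCODE coding sequence. Alternatives covered the peak threshold, TSS distance, transcript choice, shared windows, IgG peaks, uniqueness, cluster gap and CpG class.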

Additional observations from a re-analysis of the deposited data

How the results depend on the processing

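For the 6 shares at TSSs and over bodies the share over all genes was computed in 57 alternatives. In 40 of these the order of zinc finger genes and all genes was as reported and the share stayed within its interval. In 3 more, which kept only zinc finger genes with at least 90% of TSS window bases in 96-base words found once, the shares were 57.0%, 72.5% and 41.0% and the order was not computed. In 12 the shares moved with the peak threshold and kept their side of all genes. With −log10 q of at least 5 the TSS shares were 38.2% for ACTL6A, 65.4% for BRG1 and 25.6% for NRF2, against 23.7%, 55.4% and 17.2% of all genes, and the body shares 2.03%, 13% and 0%, against 5.05%, 21.0% and 1.56%. With the highest 5000 peaks of each list they were 32.1%, 23.2% and 28% at TSSs, against 19.4%, 19% and 18.5%, and 1.22%, 2.44% and 0% over bodies, against 3.26%, 3.71% and 1.75%. A stricter threshold lists fewer peaks by its construction. The order reversed in 5. Body peaks at any distance from a TSS, which adds the TSS peaks, gave 52.4%, 77.2% and 39.0%. Among starts with observed over expected CpG of at least 0.6, chosen after the data had been seen, the BRG1 TSS share was 75.2% over 1 kb and 75.5% over 250 bp on each side, below 82.3% and 80.5% of all genes. Leaving out peaks shared with either IgG list, or with 1 of them, changed none of the 6 shares. No zinc finger gene had an IgG peak at a TSS or over its body. These settings, which are counted among the 40, could thus hardly change the shares and say little about how stable they are. For the shares of single clusters, 77 of 111 alternatives stayed within the interval and on their side of all genes. Many of the 77 are other cluster gaps that left a cluster with the same genes, so that its share could not change. A further 20 moved and 14 changed side. At −log10 q of at least 5 those that changed side were ACTL6A in cluster 7 (17.4%, against 23.7% of all genes), BRG1 in clusters 4, 7 and 8 (56.8%, 47.8% and 53.8%, against 55.4%) and NRF2 in clusters 4 and 10 (10.8% and 16.3%, against 17.2%). With the highest 5000 peaks they were ACTL6A in cluster 7 (17.4%), BRG1 in clusters 5, 7, 8 and 10 (0%, 17.4%, 15.4% and 16.3%) and NRF2 in cluster 4 (16.2%). The first 8 genes of cluster 4, split off by a gap of 250 kb, had BRG1 at 87.5% and NRF2 at 25%. Of the 32-base words in TSS windows 90.9% were found once at the median, against 100% of the 96-base words. No paired analysis was possible because the groups share no second library. A summit of 3 to 6 fragments is near the caller's threshold in the ACTL6A and BRG1 lists. In the NRF2 list summits near it held more. Examples are the body peaks of ZNF20 with 8 fragments at −log10 q of 1.59 and of ZNF8 with 10 at 1.90. A gene without a listed peak may thus hold a weaker signal that was not detectable at this depth.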
